A study of Homo sapiens with 2 samples.

Results

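The genes described here make cholesterol and fatty acids, or regulate that synthesis. They comprise 35 listed genes, chosen by name for their function and by no rule on array values, though with earlier results of these data known. A gene was measured only through probe sets annotated to that gene and no other. On that rule 33 of the 35 genes had at least 1 probe set, out of 19775 genes in the whole series. FDFT1 and FADS1 had none, so no intensity or ratio is given for them. The 33 genes were read by 75 probe sets, a probe set being a group of short oligonucleotides whose signals are summarised into 1 intensity.

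RNA came from 2 cultures of Huh-7, an established human hepatoma line, with 1 Affymetrix array per culture. One culture received recombinant human interferon-alpha 2b, at 100 U/mL and for 6 hours, given with fresh medium after 24 hours of incubation. The other, untreated, culture had its medium exchanged. Both grew in medium with fetal bovine serum, which carries lipoprotein cholesterol, and Huh-7 is a single tumour line. With 1 array per group no test can be made, no difference below has a replicate check, and the number of arrays limits the precision.

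Cells build cholesterol from acetyl-CoA through mevalonate, farnesyl diphosphate, squalene and lanosterol, and build fatty acids from the same acetyl-CoA through malonyl-CoA. Both pathways are switched on by the SREBP transcription factors, encoded by SREBF1 and SREBF2. SCAP escorts SREBPs to the Golgi for cleavage when sterols are scarce, and INSIG proteins hold SCAP in the endoplasmic reticulum when sterols are plentiful. The oxysterol 25-hydroxycholesterol, made by CH25H, promotes that retention, and CH25H is known as an interferon-induced gene of macrophages and dendritic cells. The liver is a main site of both pathways.

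Promoter sequence is shown for a few of these genes because the known binding sites of the sterol and interferon pathways have different letters. The windows are RefSeq promoters of GRCh38.p14, running from 250 bases before to 50 bases after an annotated transcription start, and only the 250 bases before the start are printed, 5′ to 3′ on the gene's own strand. SREBF2 is shown as the only one of these genes with TCACCCCAC, the core of a classical sterol regulatory element. STARD4 is shown as the one with the highest ratio in the deposited values. SCD is shown for its brightest probe set, with a looser sterol core, and ISG15 as an interferon-induced gene for contrast. Capitals mark TCACCCCAC and CCAAT in SREBF2, CCAAT in STARD4, CACNCCAC and CCAAT in SCD, and GAAANNGAA in ISG15, each searched on both strands.
SREBF2, chr22:41832855-41833104, plus strand: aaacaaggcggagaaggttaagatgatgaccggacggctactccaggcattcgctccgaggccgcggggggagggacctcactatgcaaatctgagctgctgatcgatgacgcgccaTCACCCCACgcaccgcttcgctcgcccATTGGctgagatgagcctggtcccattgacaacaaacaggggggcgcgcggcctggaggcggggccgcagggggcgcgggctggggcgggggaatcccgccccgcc
STARD4, chr5:111512536-111512785, minus strand: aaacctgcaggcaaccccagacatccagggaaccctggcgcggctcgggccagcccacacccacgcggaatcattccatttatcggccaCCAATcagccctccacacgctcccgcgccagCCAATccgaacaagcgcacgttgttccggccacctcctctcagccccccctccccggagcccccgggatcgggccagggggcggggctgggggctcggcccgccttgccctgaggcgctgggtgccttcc
SCD, chr10:100346983-100347232, plus strand: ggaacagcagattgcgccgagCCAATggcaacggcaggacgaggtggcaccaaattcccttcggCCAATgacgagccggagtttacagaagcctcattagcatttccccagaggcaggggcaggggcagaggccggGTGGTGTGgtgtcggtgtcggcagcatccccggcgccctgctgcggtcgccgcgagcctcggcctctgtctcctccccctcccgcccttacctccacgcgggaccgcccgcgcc
ISG15, chr1:1013247-1013496, plus strand: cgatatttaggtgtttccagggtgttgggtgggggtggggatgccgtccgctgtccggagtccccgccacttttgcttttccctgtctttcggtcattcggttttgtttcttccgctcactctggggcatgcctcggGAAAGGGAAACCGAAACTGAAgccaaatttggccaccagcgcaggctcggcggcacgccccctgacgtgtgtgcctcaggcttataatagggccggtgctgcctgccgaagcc

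In SREBF2 the sterol regulatory element began 133 bases before the start and a CCAAT box, on the opposite strand, 106 bases before it. STARD4 held CCAAT boxes at 161 and 130 bases before its start. SCD held CCAAT boxes at 229 and 186 bases and, on the opposite strand, the looser core CACNCCAC at 114 bases. In ISG15 overlapping GAAANNGAA matches began 113, 107 and 101 bases before the start.

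Of the 35 genes, 29 had at least 1 RefSeq promoter window, and a gene was counted when any of its windows held the motif. ACAT2, FDFT1, SQLE, FASN, DGAT1 and DGAT2 had no window, and FADS1 is among the 29. The 29 genes had 40 windows, and all 27305 genes with a promoter had 35116. GAAANNGAA, from the core of the interferon-stimulated response element to which the ISGF3 complex binds, occurred in 1 of the 29 lipid synthesis genes (3.45%), namely EBP, and in 2693 (9.86%) of all genes. Of the genes with a ratio of interferon over untreated of 2-fold or more, which make up 0.43% of those counted below, 48 had a promoter window and 31 of them (64.6%) held the motif. CCAAT, the box bound by NF-Y, a partner of SREBPs, occurred in 21 of the 29 lipid synthesis genes (72.4%), against 39.7% of all genes and 17 of the 48 (35.4%). The looser core CACNCCAC, which also matches inside TCACCCCAC, occurred in 6 of 29 (20.7%) against 7.05% of all genes. The 6 were ACACA, IDI1, INSIG1, SC5D, SCD and SREBF2. The E-box CACGTG, which SREBPs can also bind, occurred in 5 of 29 (17.2%) against 8.77%, and TCACCCCAC itself in 1 of 29 (3.45%) against 146 genes (0.535%). These are matches of letters in a short window. A gene without a match may hold one elsewhere.

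**Figure D1:**
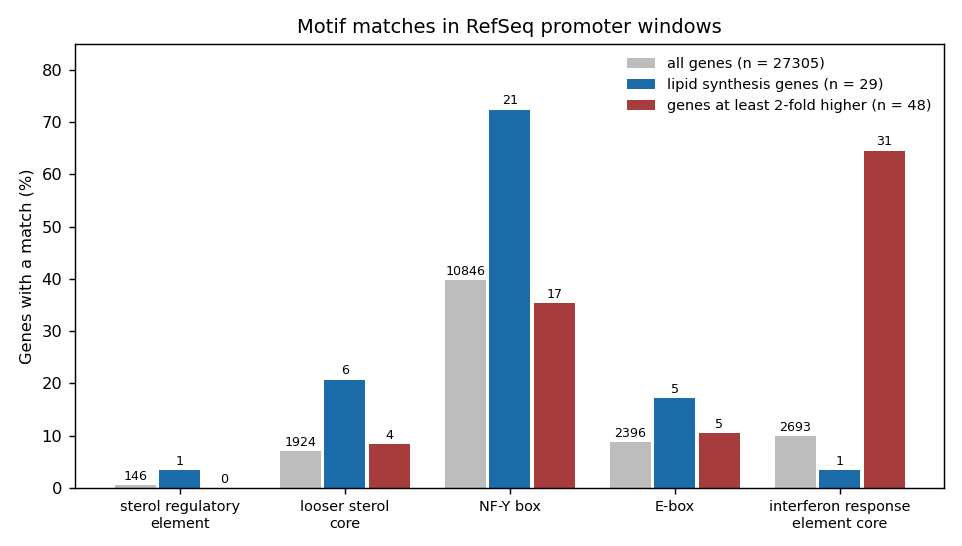
Percentage of genes whose RefSeq promoter window holds each motif on either strand, for all genes, the lipid synthesis genes and the genes with a ratio of 2-fold or more; the number above each bar is the count of genes. The NF-Y box is in 21 of the 29 lipid synthesis genes and the interferon response element core in 1, whereas 31 of the 48 genes with a ratio of 2-fold or more hold the latter.

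The deposited intensities are linear. The 50th percentile of the pooled values, an intensity of 48.5, served as a floor, to which lower values were raised before logs were taken. A gene is called counted when its probe set exceeded the floor on at least 1 array, and the ratio is the log2 of interferon over untreated. For each gene the brightest probe set was used, and a lipid synthesis gene's others above the floor are described beside it. For the 12742 genes that exceeded the floor on both arrays, log2 ratios had a median of 0.04, a central 95% from -0.29 to 0.30 and a robust SD, from the median absolute deviation, of 0.13. That spread is between genes and is not a replicate error. Interferon-responsive genes differed strongly between the same arrays. The check list of 10 such genes, fixed with earlier results of these data known, had 9 with a probe set. All 9 had ratios of 2-fold or more, as did 0.43% of all counted genes. IFIT1, MX1 and OAS1 lay under the floor on the untreated array, so their ratios are taken against the floor. ISG15 went from 351 to 8332. Of 8 hepatocyte markers 7 had a probe set, with untreated intensities from 2999.9 (TTR) to 12212 (ALB). The array read 8 leukocyte and macrophage markers, of which PTPRC, CD3E and CD163 stayed under the floor in both cultures. The other 5 exceeded it on both, with untreated intensities of 91.1 (CD14), 99.1 (CSF1R), 99.9 (MARCO), 105 (CD79A) and 2064 (LYZ).

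None of the 32 counted lipid synthesis genes reached a 1.5-fold difference in either direction. Of all 13269 counted genes 0.754% had a ratio of 1.5-fold or more upward and 0.0829% downward, so a count of 0 among 32 is near the background. With the deposited scaling the largest ratio was that of STARD4, 1.25-fold higher on the interferon array. The lowest was that of DGAT2, with a log2 ratio of -0.15. The median log2 ratio of the 32 genes was 0.07, and 23 of them had a ratio above 0, where 59.7% of all genes did. That median was -0.03 after lowess and -0.04 after quantile scaling, with 12 and 11 genes above 0. All genes had medians of -0.009 after lowess and -0.02 after quantile scaling. Of the 32 genes 19 lay above the median of all genes as deposited, and 13 did after lowess and 13 after quantile scaling. Centred on the hybridisation controls the median of the 32 genes was -0.36, with 0 genes above 0, and all genes then had a median of -0.39. The sign of a small ratio therefore depends on the scaling, and its position against the median of all genes is given further on.

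**Figure D2:**
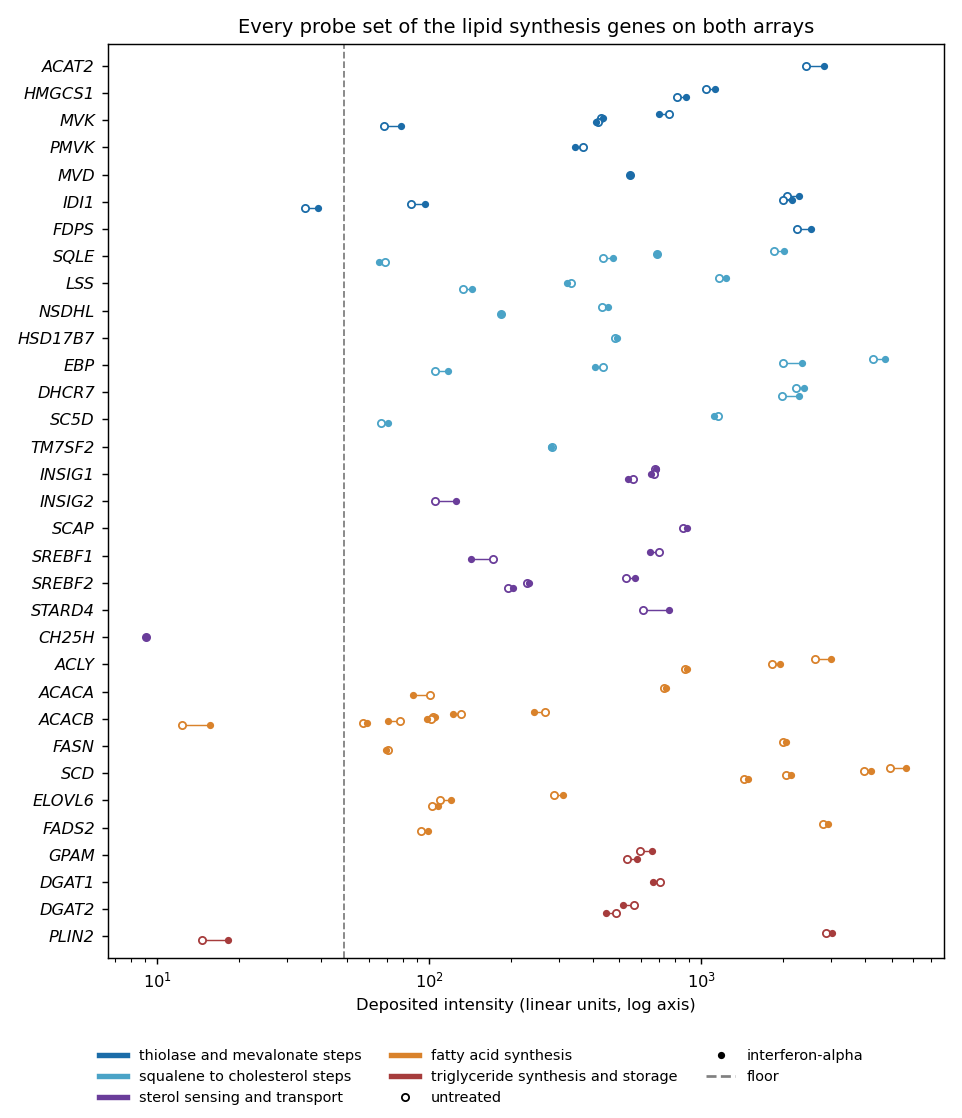
Deposited intensity of all 75 probe sets on a log axis, by gene in pathway order; open circles are the untreated array, filled circles the interferon array, and the dashed line is the floor of 48.5. Of the 75 probe sets 71 lie to the right of the floor on both arrays, and CH25H lies at 9.07 on both.

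Brightness differs between probe sets of the same gene because each binds its target with its own efficiency, so intensities of different genes are not ranked here. EBP illustrates the point, with 4 probe sets reading 4264, 1989, 437 and 105 on the untreated array. What the untreated array shows is which steps gave a signal. All 15 sterol synthesis enzymes with a probe set exceeded the floor on both arrays, as did all 11 genes of fatty acid and triglyceride synthesis and 6 of the 7 genes of sterol sensing and transport. The exception was CH25H. Of all 19775 genes with a probe set of their own, 12742 exceeded the floor on both arrays.

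The early steps of the sterol pathway had a median log2 ratio of 0.10 over 7 genes, with 4 above 0 and 3 below. ACAT2, the cytosolic thiolase that joins acetyl-CoA units, read 2428 on the untreated and 2831 on the interferon array, a log2 ratio of 0.22. It was the highest ratio among the sterol enzymes and lay at the 93.4th percentile of all genes. Within the brightest of 10 groups of genes of like brightness it lay at the 87.6th percentile. After lowess and quantile scaling the log2 ratio of ACAT2 was 0.08 and 0.06. HMGCS1, which makes HMG-CoA, had 1043 and 1118 (log2 0.10), and its other probe set gave 0.11.

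Mevalonate is then phosphorylated and decarboxylated, and the probe sets used for these steps had ratios below 0. MVK, mevalonate kinase, had 762 and 699 on the probe set used, a log2 ratio of -0.12. Its other probe sets gave 0.02, -0.03 and 0.21, the last at intensities of 68.3 and 79.0, so the gene's probe sets did not share a sign. PMVK, phosphomevalonate kinase, had 366 and 343 (log2 -0.09), and MVD, mevalonate diphosphate decarboxylase, had 549 and 548 (log2 -0.002).

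The isoprenoid steps that follow lay above the median of all genes. IDI1, the isopentenyl diphosphate isomerase, had 2061 and 2281 (log2 0.15), and its 3 probe sets above the floor ran from 0.12 to 0.17. FDPS, farnesyl diphosphate synthase, had 2251 and 2534 (log2 0.17). The IDI1 value comes from a probe set of the _x_at class, which can bind other transcripts, and is uncertain for that reason.

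From squalene to cholesterol 8 genes were counted, their log2 ratios running from -0.05 to 0.15 around a median of 0.08. SQLE, squalene epoxidase, a control point of the pathway, had 1855 and 2019 (log2 0.12). A further SQLE probe set also gave 0.12, and the other two gave -0.003 and -0.08. LSS, which folds squalene epoxide into lanosterol, had 1164 and 1235 (log2 0.09), with other probe sets at -0.05 and 0.11.

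The enzymes that trim lanosterol and move its double bonds had ratios between -0.05 and 0.15 on the probe sets used. NSDHL, a sterol dehydrogenase of the demethylation complex, had 431 and 452 (log2 0.07), and its second probe set gave 0.005. HSD17B7, the ketosterol reductase of that complex, had 482 and 488 (log2 0.02) on an _x_at probe set. EBP, the sterol isomerase, had 4264 and 4740.2 (log2 0.15), and its other probe sets ran from -0.11 to 0.23, the widest spread among these genes at 0.34. DHCR7, which carries out the last reduction to cholesterol, had 2231 and 2387 (log2 0.10), and its second probe set gave 0.21. SC5D, the sterol desaturase, had 1151 and 1114 (log2 -0.05) with a dimmer probe set at 0.08, and the sterol reductase gene TM7SF2 had 281 and 280.02 (log2 -0.01).

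With the deposited scaling, sterol sensing and transport held the highest ratio of the 32 genes, STARD4, and the next, INSIG2. STARD4, a carrier that moves cholesterol between membranes and is a known SREBP target, had 608 untreated and 761 with interferon, a log2 ratio of 0.32 on its 1 probe set. It was the only one of the 32 genes outside the central 95% of all genes, where 5.01% of all genes lie. Its upper limit is 0.30. After quantile and lowess scaling STARD4 had log2 ratios of 0.24 and 0.25, inside the upper limits of 0.27 and 0.28 there. INSIG2, which retains SCAP, had 105 and 126 (log2 0.26) on its 1 probe set, at the 96.2th percentile of all genes. After quantile and lowess scaling INSIG2 had log2 ratios of 0.25 and 0.26 and ranked above STARD4. INSIG2 was dim, in the third of 10 groups of genes of like brightness, where the central 95% ran from -0.35 to 0.37.

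INSIG1, the other retention protein and an SREBP target, differed less. It had 678 and 680 on the probe set used (log2 0.003), and its other probe sets gave -0.04 and -0.07. The log2 ratio of INSIG2 exceeded that of INSIG1 by 0.26, a difference that no scaling by a constant can alter and that has no replicate check. SCAP had 857 and 889 (log2 0.05).

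The genes for the SREBPs themselves lay on opposite sides of 0. SREBF1, whose product chiefly drives fatty acid genes, had 699 and 646 (log2 -0.11), and its second probe set had 171 and 143 (log2 -0.26). SREBF2, whose product chiefly drives cholesterol genes, had 530.4 and 569 (log2 0.10), and its other 2 probe sets gave 0.02 and 0.06. Both SREBF1 probe sets thus lay below 0 and all 3 SREBF2 probe sets above it. Of all genes 59.7% had a ratio above 0. SREBF1 stayed below 0 under every alternative tried, and SREBF2 above 0 under every one except centring on the hybridisation controls, which put it at -0.33. The log2 ratio of SREBF2 exceeded that of SREBF1 by 0.21, which is within the spread of all genes.

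CH25H, the cholesterol hydroxylase, was read by 1 probe set, at 9.07 on both arrays. Both values lie below the floor, so no ratio is given. The deposited value was the same on both arrays, as it was for 2361 (4.32%) of the 54613 probe sets other than controls. How such ties arose is unknown, and no source used here states the processing steps that gave these values. Whether CH25H is transcribed at a level this probe set cannot detect was not tested.

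**Figure D3:**
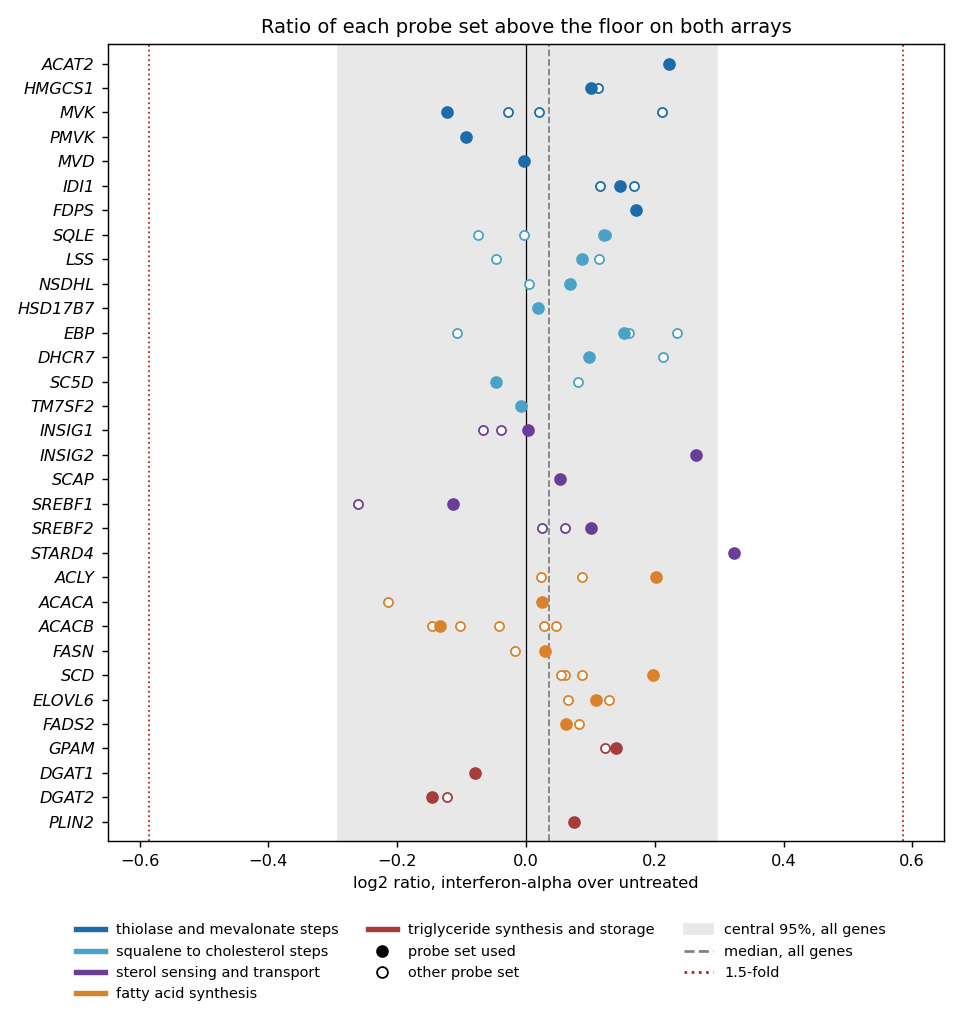
The log2 ratio of interferon over untreated for each probe set past the floor on both arrays, by gene in pathway order; filled circles are the probe sets used, open circles the others, the grey band is the central 95% of all genes and dotted lines mark 1.5-fold. STARD4 at 0.32 is the only filled point outside the band, and no point reaches 1.5-fold.

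Fatty acid synthesis had a median log2 ratio of 0.06 over 7 genes, 6 of them above 0. ACLY, which cleaves citrate to supply acetyl-CoA, had 2607 and 2998 (log2 0.20), but its other probe sets gave 0.09 and 0.02. ACACA, the cytosolic acetyl-CoA carboxylase that makes malonyl-CoA, had 729 and 742 (log2 0.02), and a dimmer probe set, with 101 and 87.0, gave -0.21. ACACB, the mitochondrial-surface carboxylase whose malonyl-CoA restrains fatty acid oxidation, had 267 and 244 (log2 -0.13). Of its 6 probe sets above the floor 4 were below 0 and 2 above. FASN, the multienzyme that builds palmitate, had 2001 and 2041 (log2 0.03), and a much dimmer probe set, with 70.4 and 69.6, gave -0.02.

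The enzymes that lengthen and desaturate fatty acids had all of their counted probe sets above 0 with the deposited scaling. Of all genes 59.7% had a ratio above 0. The probe sets used for SCD and FADS2 lay in the brightest of 10 groups of like brightness, where 96.2% of genes did. FADS2 was at the 15.6th percentile of that group. SCD, stearoyl-CoA desaturase, had 4944 and 5671 (log2 0.20), while its other 3 probe sets gave 0.05, 0.06 and 0.09. ELOVL6, the elongase acting on palmitate, had 287 and 309 (log2 0.11), with 0.06 and 0.13 from the others. FADS2, the desaturase that begins polyunsaturated fatty acid synthesis, had 2799 and 2921.5 (log2 0.06), and its second probe set gave 0.08. After lowess scaling FADS2 was at -0.08, SCD at 0.02 and ELOVL6 at 0.07, and centring on the hybridisation controls put all 3 below 0.

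Of the 4 genes of triglyceride synthesis and storage 2 had ratios above 0 and 2 below. GPAM, which adds the first acyl chain to glycerol phosphate, had 596 and 657 (log2 0.14), and its second probe set gave 0.12. DGAT2, which together with DGAT1 catalyses the final acylation, had 568 and 513 (log2 -0.15), and its second probe set had 487 and 448 (log2 -0.12). DGAT1, an enzyme of unrelated fold, had 702 and 665 (log2 -0.08) on 1 probe set. All 3 probe sets of the acyltransferases of the last step therefore lay below 0, and both genes stayed there under every alternative that measured them. Leaving out _x_at and _s_at probe sets did not, since all 3 are of the _s_at class. The alternatives share the same 2 arrays. Of all genes 59.7% had a ratio above 0, and 73.5% did in the group of like brightness that holds both genes. PLIN2, the coat protein of lipid droplets, had 2877 and 3030.1 (log2 0.07).

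The ratio depended on brightness across the whole array, which bears on these genes because most are bright. With genes that exceeded the floor on both arrays divided into 10 groups of like brightness, the median log2 ratio ran from -0.04 in the dimmest to 0.14 in the brightest. In that brightest group 96.2% of all genes had a ratio above 0. It held 11 of the 32 lipid synthesis genes, all 11 above 0, and 6 of them above the group's own median. Over all 32 genes, 14 lay above the median of their own brightness group, where 50% of all genes do. The part of brightness in the lipid genes' ratios was not tested beyond the lowess and quantile values given above.

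Against genes of like brightness 3 of the 32 lay outside the central 95% of their group, where 5.02% of all genes do. These were STARD4 above it, and MVK and DGAT2 below it. MVK was 0.20 below the median of its group and DGAT2 0.20 below that of its own. MVK's other probe sets do not repeat this, as given above, while both DGAT2 probe sets were similar.

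**Figure D4:**
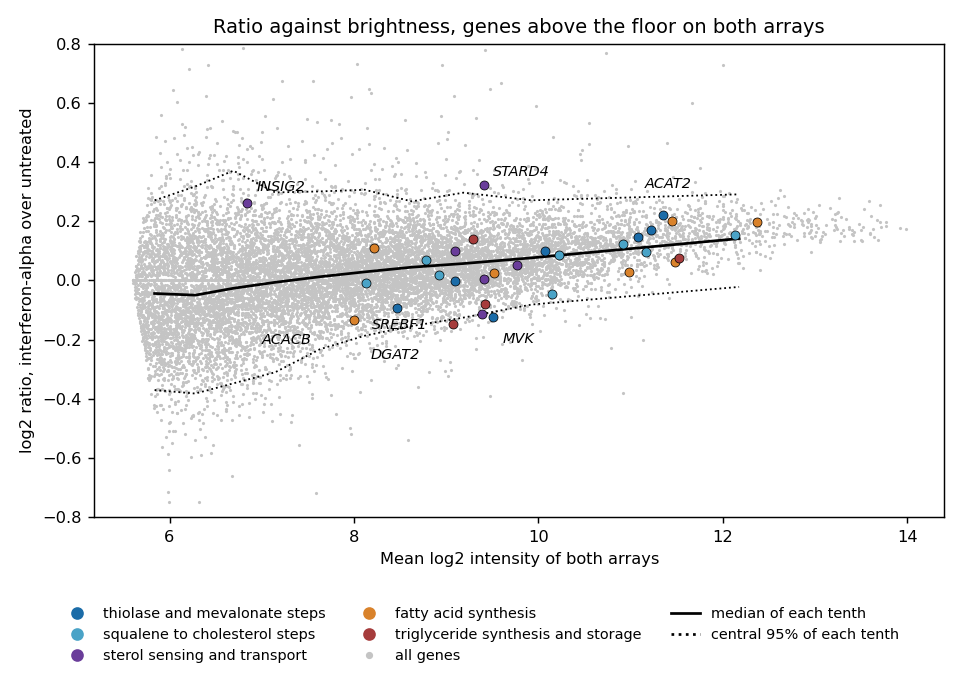
The log2 ratio of interferon over untreated against the mean log2 intensity for genes past the floor on both arrays; coloured points are the lipid synthesis genes, grey points all genes, and lines give the median and the central 95% of each of 10 brightness groups. The median climbs from -0.04 to 0.14, and STARD4, MVK and DGAT2 lie outside the dotted lines of their groups; ratios beyond 0.8 either way are off the axis.

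Probe sets of the same gene give a second view of the size of these differences. Of the 32 genes 21 had more than 1 probe set past the floor on both arrays, and in 12 of them every probe set lay on 1 side of 0, with 10 above and 2 below. The 2 below were SREBF1 and DGAT2. The same count was not made over all genes, of which 59.7% had a ratio above 0. No trait particular to the lipid genes is therefore read from the 12. Probe sets of a gene typically spanned a range of 0.12 in log2 ratio (the median over genes) among these 21 genes, and 0.14 among 5912 genes of the whole array. In 22 of the 32 genes the size of the log2 ratio was no larger than the 0.14 of the whole array. This sets the size of 1 ratio beside a range between probe sets, and the share of all genes was not computed. The robust SD of the log2 ratios of all genes, 0.13, is of similar size.

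The position of a gene against the median of all genes was followed through the 11 alternatives. It stayed above that median in every setting that measured it for 12 genes, namely ACAT2, HMGCS1, IDI1, FDPS, SQLE, INSIG2, SREBF2, STARD4, ACLY, SCD, ELOVL6 and GPAM. It stayed below for 9, namely MVK, PMVK, MVD, TM7SF2, INSIG1, SREBF1, ACACB, DGAT1 and DGAT2. The remaining 11 changed side. Settings share the same 2 arrays, so this describes the processing and not the reproducibility of the cultures. Some genes kept their side by a small margin. At its closest setting SQLE lay 0.004 from the median, on the upper side, and INSIG1 -8.0e-05 from it. How many of all genes kept their side was not computed. No trait particular to the lipid genes is therefore read from the 12, 9 and 11.

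Neighbouring genes of lipid metabolism, from lists of further pathway members, held no gene at 1.5-fold. Of all counted genes 0.754% were past it upward and 0.0829% downward, so a count of 0 is near the background here too. Among other sterol synthesis genes 6 of 9 had a probe set, with a median log2 ratio of 0.08; MSMO1, the sterol methyl oxidase, was highest at 0.18, from 1900.3 to 2149. For SREBP processing and sterol-regulated degradation 8 of 9 had one, with a median of 0.10. The ubiquitin ligase gene RNF145, which has been linked to SCAP, had 211 and 261 (log2 0.31), with a second probe set at -0.03. The value of 0.31 lies outside the central 95% of all genes, where 5.01% of all genes lie. The site-1 protease gene MBTPS1, which makes the lumenal cut that starts SREBP processing, was lowest at -0.14, with its other probe set at 0.04.

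In cholesterol uptake, storage and efflux 9 genes were counted and 3 were below the floor on both arrays, namely ABCG1, ABCG5 and ABCG8. Their median log2 ratio was 0.09. LIPA, the lysosomal lipase that frees cholesterol from lipoproteins, was highest with 569.97 and 698 (log2 0.29), and SOAT2, which esterifies cholesterol, lowest with 657 and 624 (log2 -0.08). Among other fatty acid and lipid droplet genes 16 were counted, with a median of 0.04. ACSL4, an acyl-CoA synthetase for polyunsaturated fatty acids, had 463 and 565 (log2 0.29), with another probe set at 0.46. The triglyceride lipase gene PNPLA2 was lowest with 1914 and 1635 (log2 -0.23), but its other probe set gave 0.21.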

How the data were processed

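Both arrays are described by 1 table of 54675 probe sets with linear intensities, as the authors deposited them. GCOS, Affymetrix's scanner software, is named in the submitters' processing notes, whereas its version, background correction, probe summary and scaling were not given in the sources used here. Medians of the 54613 probe sets other than controls were 48.8 untreated and 48.04 with interferon. Genes were named from the platform annotation, which gives 1 gene for 41091 probe sets, several for 1801 and none for 11721, and symbols were updated by gene ID through RefSeq.

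From these intensities the floor, the log2 ratios and the counts were computed with numpy 2.4.6 and pandas 2.3.3. The brightest probe set of a gene is the one whose log2 intensity, averaged over both arrays, was highest. Lowess scaling used statsmodels 0.14.6 with a span of 0.3. Recovery of known fold changes of 1.5-fold or more was checked on simulated data without a trend in brightness. Changes as small as the ratios of the lipid synthesis genes were not simulated, so the check does not cover them. Every listed gene is named, and the examples from the further lists are their extremes. The genes and lists were chosen with earlier results of these data known. Some genes of the further lists are not reported here.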

Additional observations from a re-analysis of the deposited data

Results flagged for a closer look

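The 18 probe sets of the hybridisation controls, bacterial and phage transcripts added to the labelled sample, lie outside the comparison of genes. All 18 had a higher intensity with interferon: their log2 ratios ran from 0.14 to 0.56 around a median of 0.427. They are singled out because they are not part of the gene comparison and differ from the untreated array. That median exceeds the log2 ratio of each of the 32 lipid synthesis genes, the highest of which was 0.32 for STARD4.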

How the results depend on the processing

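Under all 11 alternatives 0 of the lipid synthesis genes reached 1.5-fold upward and 0 downward. Of all counted genes 8.72% were past 1.5-fold downward after centring on the hybridisation controls, against 0.0829% as reported. The alternatives changed the floor (40th or 60th percentile), replaced it by a pseudocount of 1 or 16, changed the choice of probe set, or changed the scaling between arrays. The 3 medians of log2 ratios, of all genes described, the sterol enzymes and the fatty acid and triglyceride genes, were 0.07, 0.09 and 0.06 as reported. They were -0.04, -0.03 and -0.090 after quantile scaling, -0.03, -0.01 and -0.072 after lowess, and -0.36, -0.34 and -0.37 after centring on the hybridisation controls, which subtracts 0.43 from each ratio. The median of all genes was 0.04 as reported, and -0.02, -0.009 and -0.39 under these 3 scalings in turn. All other alternatives kept the 3 medians of the lipid synthesis genes above 0. The count outside the central 95% of all genes was 1, STARD4, and 0 after quantile and after lowess scaling. Without _x_at and _s_at probe sets 20 of the 32 genes could be measured. Of single-gene values under an alternative, 287 moved by less than the robust SD of all genes and 53 by more, 32 of these after centring on the hybridisation controls. No paired analysis was possible because each group has 1 array. Signal over background limits CH25H, for which no ratio can be given, and the dim probe sets of INSIG2, MVK and ACACA.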
